A study of Rattus norvegicus with 53 samples.

Results

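Fc receptors bind the constant part of antibodies and carry antibody signals into blood cells. The genes described here are Fcgr1a, Fcgr2b, Fcer1g and Fcer2, and their members were all probe sets that the array annotation assigns to exactly 1 of these symbols. This gave 5 probe sets for 4 genes, out of 31042 probe sets and 14217 genes measured. Fcgr1a (1393038_at), Fcgr2b (1371079_at) and Fcer1g (1373575_at) had 1 probe set each, and Fcer2 had 2 (1391072_at and 1369872_a_at). A further 2 probe sets carried both Fcgr2a and Fcgr2al1 as symbols and were assigned to neither gene.

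Fcgr1a encodes CD64, the high-affinity activating receptor for IgG of monocytes and macrophages, which interferon gamma is known to induce. Fcgr2b encodes the inhibitory low-affinity IgG receptor of B cells and myeloid cells, whose ITIM motif recruits phosphatases. Fcer1g encodes the gamma chain, an adaptor whose ITAM motif signals through Syk for CD64, the activating IgG receptors and the high-affinity IgE receptor. Fcer2 encodes CD23, a C-type lectin that binds IgE with low affinity on B cells and that IL-4 is known to induce.

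The study cultured peripheral blood mononuclear cells (PBMCs) of healthy Brown Norway (BN) rats for 6 h with 20% serum or plasma and read their RNA on Affymetrix rat arrays, 1 array per culture. The cells are thus a reporter of what the serum carries, and a serum effect on them need not match what happens in the serum donor. The PBMC donors were about 180 days old and every culture used cells of this strain. DRlyp/lyp rats are BB rats that carry the lymphopenia allele on both chromosomes and develop spontaneous autoimmune diabetes, and DR+/+ rats are their non-lymphopenic, diabetes-resistant counterpart. The question was which transcripts sera of such rats induce, and whether interleukin-1 (IL-1) takes part.

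There were 8 groups and 53 arrays. The BN control groups were autologous BN serum (10 arrays) and allogeneic BN serum, from other BN rats (15 arrays), with a serum age of 180 days. Autologous BN serum with added IL-1B, the cytokine, had 4 arrays. Serum of DRlyp/lyp rats of 60 days had 4 arrays, the same kind of serum with IL-1RA, the natural IL-1 receptor blocker, added to the culture had 4, and serum of DR+/+ rats of 60 days had 4. Serum of DRlyp/lyp rats of 40 days came from rats injected with human IL-1RA (350 ug/kg/day, 6 arrays) or with buffered saline (PBS, 6 arrays) for 10 days from day 30. The sample labels of the injected IL-1RA group speak of supplemented serum instead, and the study's design text was followed here. The BB sera therefore differed from the BN sera in strain, in donor age and in being foreign to the cells. Nothing in the labels tells if replicates stand for different animals, and the p-values then reflect the spread among these arrays, which may be technical.

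The arrays formed 2 sets that the labels do not name: autologous replicates 1 to 6, allogeneic replicates 1 to 3 and the 40-day sera (first set, 21 arrays), and all other arrays (second set, 32 arrays). The split was found from the values, so unsupervised clustering of them, which gave it for 53 of 53 arrays, is not separate support. Of all probe sets, 55.0% differed between the autologous arrays of the sets, which describes the split and does not test it. Groups were therefore compared within a set only, and since the 40-day and 60-day sera never shared a set, serum age and array set cannot be told apart. Within the first set, the 4 arrays numbered 1 stood apart from the other 17. The summed T cell markers lay between 12.37 and 14.24 (log2) and the B cell markers between 11.43 and 13.19 on all arrays. Platelet markers lay between 12.93 and 14.95 and erythroid markers between 13.65 and 15.16. With no other cells to compare, these sums do not test the cell identity.

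Values are log2 expression, so a difference of 1 is a 2-fold change, and the method used (RMA) compresses differences near background. Differences are given with limma's standard error (SE) or 95% confidence interval, and a probe set was called at a Benjamini-Hochberg adjusted p under 0.05 over all 31042 probe sets. Because whole PBMCs were measured, more cells of a type and more RNA per cell cannot be told apart. Against allogeneic BN serum, Fcgr1a and Fcgr2b were called higher with sera of 60-day BB rats, with and without the lymphopenia allele. Against autologous BN serum the 1 such call was that of Fcgr2b with DR+/+ serum, which most fits that left out 1 array did not keep. Fcer1g was called in none of these comparisons, and Fcer2 was higher with DR+/+ serum against allogeneic serum on 1 of its 2 probe sets.

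**Figure D1:**
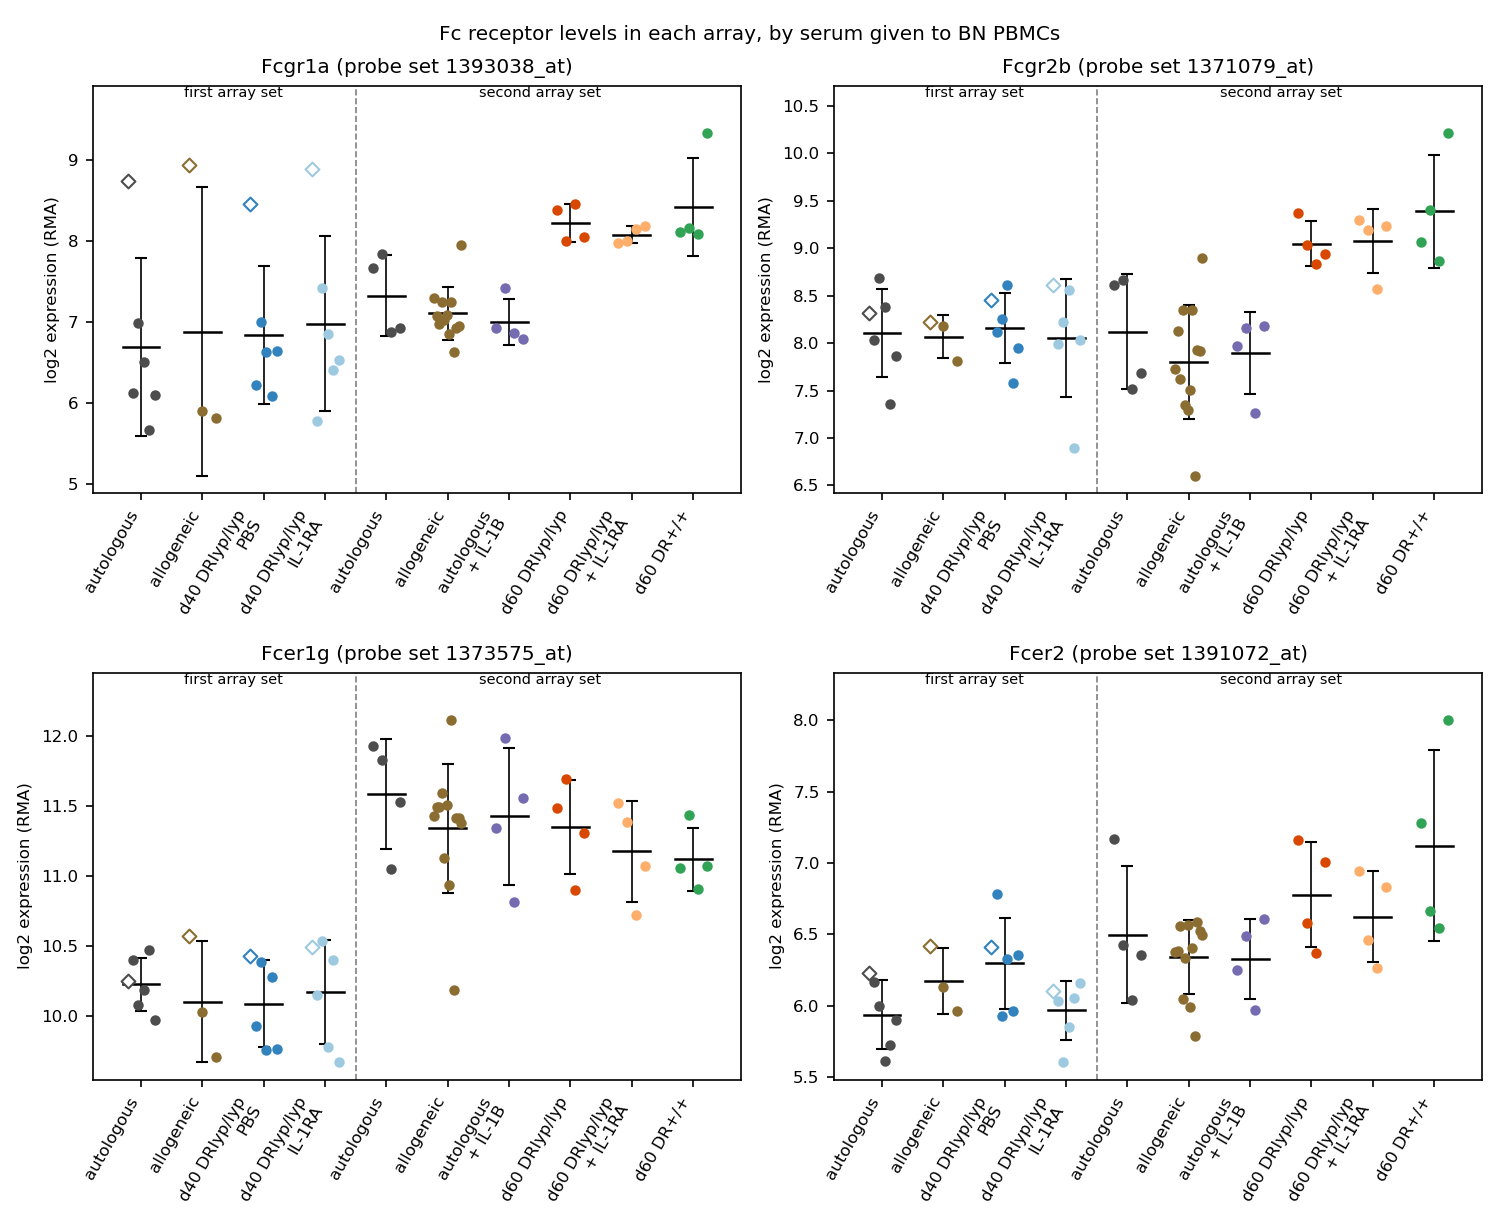
Log2 expression of Fcgr1a, Fcgr2b, Fcer1g and Fcer2 (1391072_at) on each of the 53 arrays (y axis, 1 panel per gene) by group and array set (x axis), with the mean and its SD as bars and open diamonds for the first-set arrays numbered 1. In the second set the 60-day serum groups sit highest for Fcgr1a and Fcgr2b, with means of 8.08 to 8.42 and of 9.05 to 9.39, while Fcer1g is lower in the whole first set than in most of the second.

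Fcgr1a, the activating receptor, was measured at 8.38, 8.00, 8.46 and 8.04 (log2 expression) with 60-day DRlyp/lyp serum, a mean of 8.22 ± 0.23 (SD, n = 4). With DR+/+ serum it was at 8.11, 8.16, 8.09 and 9.33, a mean of 8.42 ± 0.60 (SD, n = 4). The autologous arrays of the same set were at 7.66, 7.84, 6.87 and 6.93, a mean of 7.33 ± 0.50 (SD, n = 4). All 8 arrays with 60-day serum alone were thus above all 4 autologous ones, and replicate 4 of DR+/+ serum stood above the rest. The 12 allogeneic arrays ran from 6.63 to 7.95 with a median of 7.05 and a mean of 7.11 ± 0.32 (SD), so both 60-day groups lay wholly above them as well.

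Against autologous serum, the Fcgr1a difference was 0.89 (SE 0.51, adjusted p = 0.860, limma) for DRlyp/lyp serum and 1.10 (SE 0.51, adjusted p = 0.280, limma) for DR+/+ serum, and neither was called. Groups that did not overlap, with the serum group higher, were seen for 0.857% of all probe sets in the first of these comparisons and 2.54% in the second, and against allogeneic serum for 0.928% and 1.49%. Against allogeneic serum, Fcgr1a was called higher with DRlyp/lyp serum by 1.11 (SE 0.42, adjusted p = 0.0476, limma). With DR+/+ serum it was called higher by 1.32 (SE 0.42, adjusted p = 0.0184, limma). The call for DRlyp/lyp serum was near the threshold and was lost when any 1 of 12 of the 16 arrays was left out, with adjusted p between 0.0343 and 0.146 over all 16. The call for DR+/+ serum was lost without its replicate 4, at a difference of 1.01 (adjusted p = 0.0774).

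The SE of Fcgr1a depended on the first set, where the 4 arrays numbered 1 were far from the others. With the second set fitted alone, a choice made after seeing the data, the SE against autologous serum was 0.25 instead of 0.51. Fcgr1a was then called against autologous serum for DR+/+ serum (adjusted p = 0.0479), and not for DRlyp/lyp serum (adjusted p = 0.732). Against allogeneic serum its adjusted p fell to 0.00292 for DRlyp/lyp serum and 0.000287 for DR+/+ serum. In that fit 0.00644% (DRlyp/lyp) and 0.271% (DR+/+) of all probe sets were called against autologous serum, and 16.0% and 19.6% against allogeneic serum.

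Fcgr2b, the inhibitory receptor, had values of 9.38, 9.04, 8.83 and 8.94 with DRlyp/lyp serum, a mean of 9.05 ± 0.24 (SD, n = 4). With DR+/+ serum its values were 9.07, 9.41, 8.86 and 10.21, a mean of 9.39 ± 0.59 (SD, n = 4). The autologous arrays of the second set had 8.61, 8.67, 7.52 and 7.68, a mean of 8.12 ± 0.61 (SD, n = 4). As for Fcgr1a, all 8 arrays of the 60-day sera were above the 4 autologous ones, which themselves fell into a higher and a lower pair. The 12 allogeneic arrays ran from 6.60 to 8.89 with a median of 7.82 and a mean of 7.80 ± 0.60 (SD). In each 60-day group 3 of 4 arrays were above all 12 allogeneic ones.

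Against autologous serum, Fcgr2b was called higher with DR+/+ serum by 1.27 (SE 0.34, adjusted p = 0.0432, limma). With DRlyp/lyp serum the difference was 0.93 (SE 0.34, 95% confidence interval 0.24 to 1.62, adjusted p = 0.701, limma) and was not called. Against allogeneic serum Fcgr2b was called higher with both, by 1.24 (SE 0.28, adjusted p = 0.00322, limma) for DRlyp/lyp serum and by 1.58 (SE 0.28, adjusted p = 0.00014, limma) for DR+/+ serum. These last calls held without any 1 array, where the difference for DR+/+ serum ran from 1.31 to 1.76. The call against autologous serum did not: it was lost in 7 of 8 fits that left out 1 array, all but the one without DR+/+ replicate 3. Without DR+/+ replicate 4, the difference was 0.99 (adjusted p = 0.123). It was also lost with the second set fitted alone (adjusted p = 0.0927).

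Fcer1g, the shared ITAM adaptor, was lower on average with the 60-day sera than with autologous serum, within the spread of the arrays. Its level was 11.49, 11.70, 10.91 and 11.31 with DRlyp/lyp serum and 11.06, 11.44, 10.91 and 11.07 with DR+/+ serum, against 11.93, 11.83, 11.05 and 11.53 with autologous serum. The groups overlapped, and the differences from autologous serum were -0.24 (adjusted p = 0.884, limma) for DRlyp/lyp serum and -0.47 (adjusted p = 0.381, limma) for DR+/+ serum. Leaving out 1 array moved them between -0.41 and -0.088 and between -0.64 and -0.35. The 12 allogeneic arrays ran from 10.19 to 12.12 with a median of 11.42. Platelets also express Fcer1g, and the 9 measured platelet markers of a list of 12 had median differences from autologous serum of -0.67 and -1.12 for these sera, with 0 and 2 called lower. Their summed level ran from 14.34 to 14.95 on the autologous arrays, 14.05 to 14.62 with DRlyp/lyp serum and 13.98 to 14.51 with DR+/+ serum. Their part in the Fcer1g values was not tested.

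Fcer2, the IgE receptor CD23, was read by 1391072_at at 7.16, 6.58, 6.37 and 7.01 with DRlyp/lyp serum. With DR+/+ serum it was at 7.28, 6.66, 6.54 and 8.00, and with autologous serum at 7.17, 6.43, 6.04 and 6.35. The groups overlapped, and replicate 4 of DR+/+ serum was again the highest array. The differences from autologous serum were 0.28 (adjusted p = 0.873, limma) for DRlyp/lyp serum and 0.62 (SE 0.23, adjusted p = 0.164, limma) for DR+/+ serum. Leaving out 1 array moved them between 0.13 and 0.51 and between 0.33 and 0.85. The 12 allogeneic arrays ran from 5.79 to 6.59 with a median of 6.39, below 3 of 4 DR+/+ arrays. Against them Fcer2 was called higher with DR+/+ serum by 0.78 (SE 0.19, adjusted p = 0.00323, limma), and the difference for DRlyp/lyp serum was 0.44 (SE 0.19, adjusted p = 0.0851, limma). Without DR+/+ replicate 4 the first of these was 0.49 (adjusted p = 0.0444), still called. The other Fcer2 probe set, 1369872_a_at, stayed between 3.48 and 4.26 on all 53 arrays, with group means of 3.63 to 3.92, and had differences of -0.061 and -0.082 for DR+/+ serum against autologous and allogeneic serum. The probe sets thus disagreed, and the Fcer2 result rests on 1391072_at.

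**Figure D2:**
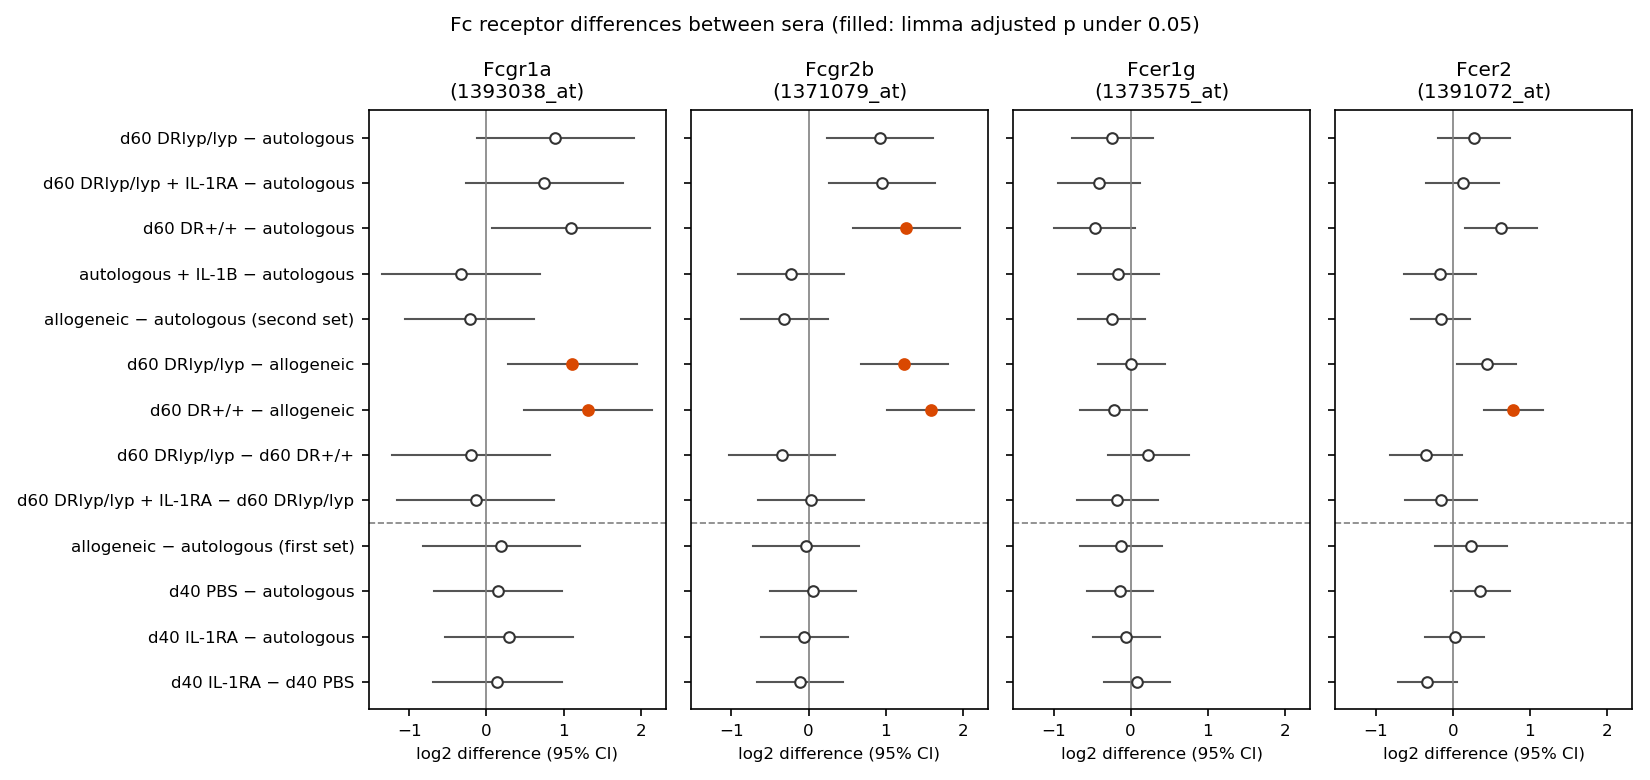
Log2 differences between groups (x axis) with 95% confidence intervals for Fcgr1a, Fcgr2b, Fcer1g and Fcer2 (1391072_at), 1 panel per gene and 1 line per comparison within an array set. Filled points were called at an adjusted p under 0.05: Fcgr2b for DR+/+ against autologous serum (1.27), and against allogeneic serum Fcgr1a and Fcgr2b for both 60-day sera and Fcer2 for DR+/+ serum (0.78).

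Counted by gene, 0 of 4 members were called with DRlyp/lyp serum against autologous serum, where 0.0354% of all probe sets were called (0.0322% higher) and 1857 had an unadjusted p under 0.05, among them 1 member. With DR+/+ serum 1 of 4 was called, against 1.35% of all probe sets (0.970% higher). Against allogeneic serum 2 of 4 were called with DRlyp/lyp serum and 3 of 4 with DR+/+ serum, all higher, where 21.5% and 25.5% of all probe sets were called (12.1% and 13.3% higher). These comparisons share their autologous or allogeneic arrays and are not independent of each other. The members' median differences were 0.59 and 0.86 against autologous serum and 0.78 and 1.05 against allogeneic serum, beside medians over all genes between -0.06 and 0.05. Member counts and medians use the brighter probe set of each gene, while the shares called are of probe sets. The dimmer Fcer2 probe set, 1369872_a_at, was called in none of these comparisons.

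Between the BB sera, with and without the lymphopenia allele, no difference of the IgG receptors was detectable. DRlyp/lyp minus DR+/+ serum was -0.20 for Fcgr1a (95% confidence interval -1.22 to 0.82, adjusted p = 0.994, limma) and -0.34 for Fcgr2b (-1.03 to 0.35, adjusted p = 0.969, limma). Called were 0 of 31042 probe sets, with 1864 at an unadjusted p under 0.05 and no member among them. Both intervals still hold a 2-fold lower level with DRlyp/lyp serum. For Fcgr1a this rests on an SE of 0.51, which includes the spread of the first set. With the second set fitted alone, the Fcgr1a difference was again -0.20, with an SE of 0.25. For Fcgr2b the SE was 0.34 with all arrays and 0.35 with the second set alone. The printed intervals make no use of the replicate numbers. Fcer1g differed by 0.23, Fcer2 1391072_at by -0.34 and Fcer2 1369872_a_at by 0.11, and none was called.

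With IL-1RA added to the culture, the means of both IgG receptors were near those with DRlyp/lyp serum alone. These arrays do not show whether IL-1 was blocked. Fcgr1a was at 7.98, 8.00, 8.15 and 8.18 with DRlyp/lyp serum plus IL-1RA, and Fcgr2b at 9.30, 9.19, 8.57 and 9.24. The difference with IL-1RA was -0.14 (95% confidence interval -1.16 to 0.88) for Fcgr1a and 0.03 (-0.66 to 0.72, adjusted p = 1.00, limma) for Fcgr2b. The Fcgr1a interval reaches -1.16, so this fit does not exclude a fall of that size. Its SE of 0.51 includes the spread of the first set. With the second set fitted alone, the SE was 0.25. Fcer1g differed by -0.17, Fcer2 1391072_at by -0.15 and Fcer2 1369872_a_at by -0.14. Called were 0 of 31042 probe sets, with 956 at an unadjusted p under 0.05. Against autologous serum these cultures were higher by 0.75 for Fcgr1a (adjusted p = 0.643, limma), with no overlap of the 4 and 4 arrays, and by 0.96 for Fcgr2b (adjusted p = 0.386, limma). In that comparison 0.0548% of all probe sets were called and the arrays of 5.61% did not overlap (2.52% higher).

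With IL-1B added to autologous serum no rise was detected. Fcgr1a was at 6.93, 7.42, 6.86 and 6.79 and Fcgr2b at 7.97, 8.16, 7.27 and 8.18. The differences from autologous serum were -0.33 and -0.22, neither called, and 0 of 31042 probe sets were called by limma, with 1121 at an unadjusted p under 0.05. The other members lay below autologous serum too, all 4 between -0.33 and -0.16.

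Between the BN sera no member differed detectably. Allogeneic minus autologous serum in the second set was -0.22 for Fcgr1a (adjusted p = 0.820, limma) and -0.31 for Fcgr2b (adjusted p = 0.586, limma), and 0 of 4 members were called, against 0.00966% of all probe sets. In the first set, with 3 allogeneic arrays, this difference was 0.19 for Fcgr1a and -0.038 for Fcgr2b. For Fcer1g it was -0.12 there and for Fcer2 1391072_at 0.23. No member was called in the first set, where 1.07% of all probe sets were. Ranked by mean, Fcgr1a in the second set ran from autologous plus IL-1B, allogeneic and autologous to DRlyp/lyp plus IL-1RA, DRlyp/lyp and DR+/+ serum. The step between autologous and DRlyp/lyp plus IL-1RA serum (0.75) was the only one between neighbours above their pooled SD. For Fcgr2b the order was allogeneic, autologous plus IL-1B, autologous, DRlyp/lyp, DRlyp/lyp plus IL-1RA and DR+/+ serum, and only the step from autologous to DRlyp/lyp serum (0.93) was above the pooled SD. No such step was found for Fcer1g or Fcer2, nor for any member in the first set.

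In the first set the 40-day DRlyp/lyp sera did not differ detectably from autologous serum. Fcgr1a was at 8.45, 6.23, 7.01, 6.63, 6.08 and 6.65 with serum of PBS-injected rats and at 8.89, 5.78, 7.42, 6.86, 6.41 and 6.54 with serum of IL-1RA-injected rats. The autologous arrays were at 8.74, 6.13, 6.99, 6.51, 5.67 and 6.10, and the 3 allogeneic arrays at 8.94, 5.90 and 5.81. In all 4 groups the array numbered 1 was the highest by more than 1 log2 unit, and the remaining arrays overlapped. Serum of PBS-injected rats minus autologous serum was 0.15, IL-1RA minus autologous serum was 0.29, and IL-1RA minus PBS was 0.14. Fcgr1a was called in none of these comparisons. Fcer1g differed from autologous serum by -0.14 (PBS) and -0.055 (IL-1RA), not called.

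Fcgr2b in the first set was less affected by the arrays numbered 1. It was at 8.46, 8.12, 8.26, 8.61, 7.58 and 7.95 after PBS, at 8.61, 7.99, 8.23, 8.56, 6.90 and 8.03 after IL-1RA, and at 8.32, 8.03, 8.69, 8.38, 7.36 and 7.86 with autologous serum. In each of these groups replicate 5 was the lowest. The differences were 0.06 for PBS and -0.053 for IL-1RA against autologous serum, and -0.11 for IL-1RA against PBS, not called. For Fcer2, 1391072_at ran from 5.93 to 6.79 after PBS, from 5.60 to 6.16 after IL-1RA and from 5.61 to 6.23 with autologous serum. Its differences were 0.36 (PBS against autologous) and -0.33 (IL-1RA against PBS), not called. Limma called 0 of 31042 probe sets for PBS against autologous serum, with 1100 at an unadjusted p under 0.05, and 0.00322% for IL-1RA against PBS. For IL-1RA against autologous serum it called 0 as well, with 213 at an unadjusted p under 0.05.

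**Figure D3:**
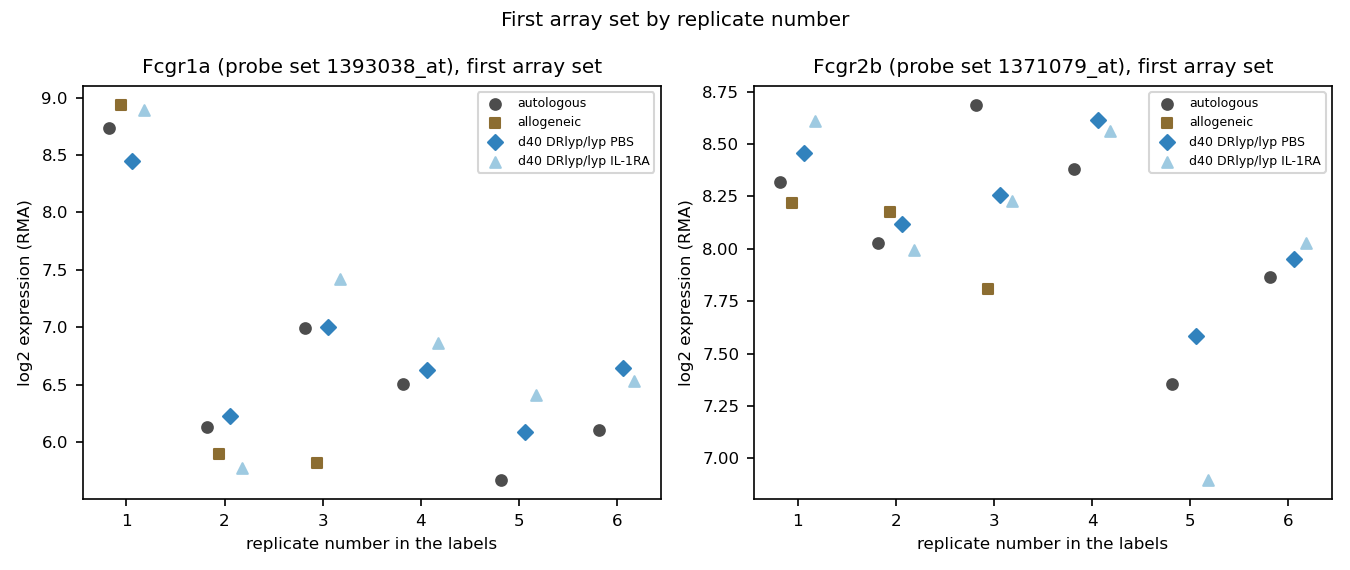
Log2 expression of Fcgr1a and Fcgr2b (y axis) by replicate number (x axis) for the 4 groups of the first array set, 1 point per array with a marker style for each group. The arrays numbered 1 are highest for Fcgr1a in every group (8.45 to 8.94), and replicate 5 is lowest for Fcgr2b in the groups that have one (6.90 to 7.58).

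Whether the 60-day DRlyp/lyp serum differed from autologous serum by more than the 40-day serum did was tested as a difference of differences, added after seeing the data. It was 0.74 (SE 0.66, adjusted p = 0.948, limma) for Fcgr1a and 0.87 (SE 0.44, 95% confidence interval -0.02 to 1.76, adjusted p = 0.948, limma) for Fcgr2b. Called were 0 of 31042 probe sets, with 1450 at an unadjusted p under 0.05. Each serum age was measured in 1 array set only.

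The array sets themselves moved the members unequally. First minus second set, for autologous serum, was -1.36 for Fcer1g (SE 0.24, adjusted p = 1.36e-05, limma) and -0.56 for Fcer2 1391072_at (adjusted p = 0.0241, limma), while Fcgr2b differed by -0.013. The Fcer2 call was lost without autologous replicate 4 or replicate 7, and leaving out 1 array moved its difference between -0.71 and -0.33 (adjusted p up to 0.211). Fcer1g had no overlap: 9.97 to 10.47 on the first-set autologous arrays against 11.05 to 11.93 on the second. Of all probe sets, 20.4% were lower with no overlap in this comparison. Since the sets were found from the values, these p-values describe the split and do not test it. Fcgr1a differed by -0.64 with all arrays and by -1.05 (adjusted p = 0.0376, limma) without autologous replicate 1. The sets also differed in an array control and in markers. The 3' minus 5' difference of the actin control probes averaged 3.58 ± 0.76 (SD, log2) over the 21 first-set arrays and 2.58 ± 0.40 (SD) over the 32 others. Single arrays ran from 0.76 to 4.31 in the first set and from 1.13 to 3.36 in the second, which overlap. Between the same autologous arrays, 6 monocyte markers were called lower in the first set and 1 higher. Of 6 measured erythroid markers 4 were called lower, with the largest difference for Ahsp, a hemoglobin chaperone, at -2.33. Of 9 immediate-early genes, 5 were called higher and 1 lower. Their part in the member differences between sets was not tested.

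The IgG receptors are made by monocytes, so monocyte markers are given beside them. Of 12 measured markers of a list of 13, 0 were called with DRlyp/lyp serum against autologous serum (median difference 0.37) and 2 with DR+/+ serum (median 0.60): Cd14, the lipopolysaccharide co-receptor, by 1.70 (adjusted p = 0.0310, limma) and Mpeg1, a macrophage perforin, by 2.23 (adjusted p = 0.00235, limma). Against allogeneic serum 4 were higher and 1 lower with DRlyp/lyp serum (median 0.45), and 6 higher and 1 lower with DR+/+ serum (median 0.70). The lower gene was Ccr2, a chemokine receptor, in both. Of all probe sets, 21.5% and 25.5% were called in these comparisons with allogeneic serum. The summed marker level (log2 of the sum of linear values) ran from 12.74 to 13.02 with DRlyp/lyp serum, from 12.64 to 12.97 with IL-1RA added and from 12.93 to 13.23 with DR+/+ serum. It ran from 11.51 to 12.81 with autologous serum, from 10.84 to 13.01 with allogeneic serum and from 11.59 to 12.37 with IL-1B. The marker level was thus higher in the same groups as the receptors, and its part in the receptor differences was not tested.

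Within groups, the receptors and the monocyte markers varied together from array to array. Same-numbered arrays of different groups deviated together in several comparisons, so the arrays are not independent points, and these correlations are a description with no p. After subtracting group means, Fcgr1a correlated with the summed marker level over the 32 second-set arrays at Pearson's r = 0.624 and Spearman's rho = 0.537, and at r = 0.580 without the 2 arrays farthest out. For Fcgr2b it was r = 0.835 and rho = 0.800, and r = 0.733 without 2 arrays. In the first set, without the 4 arrays numbered 1, Fcgr1a was at r = 0.910 and rho = 0.924 over 17 arrays that carry 5 replicate numbers, and at r = 0.873 without 2 arrays. Fcgr2b there was at r = 0.582 and rho = 0.608. Those 17 arrays were chosen after the values had been seen.

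**Figure D4:**
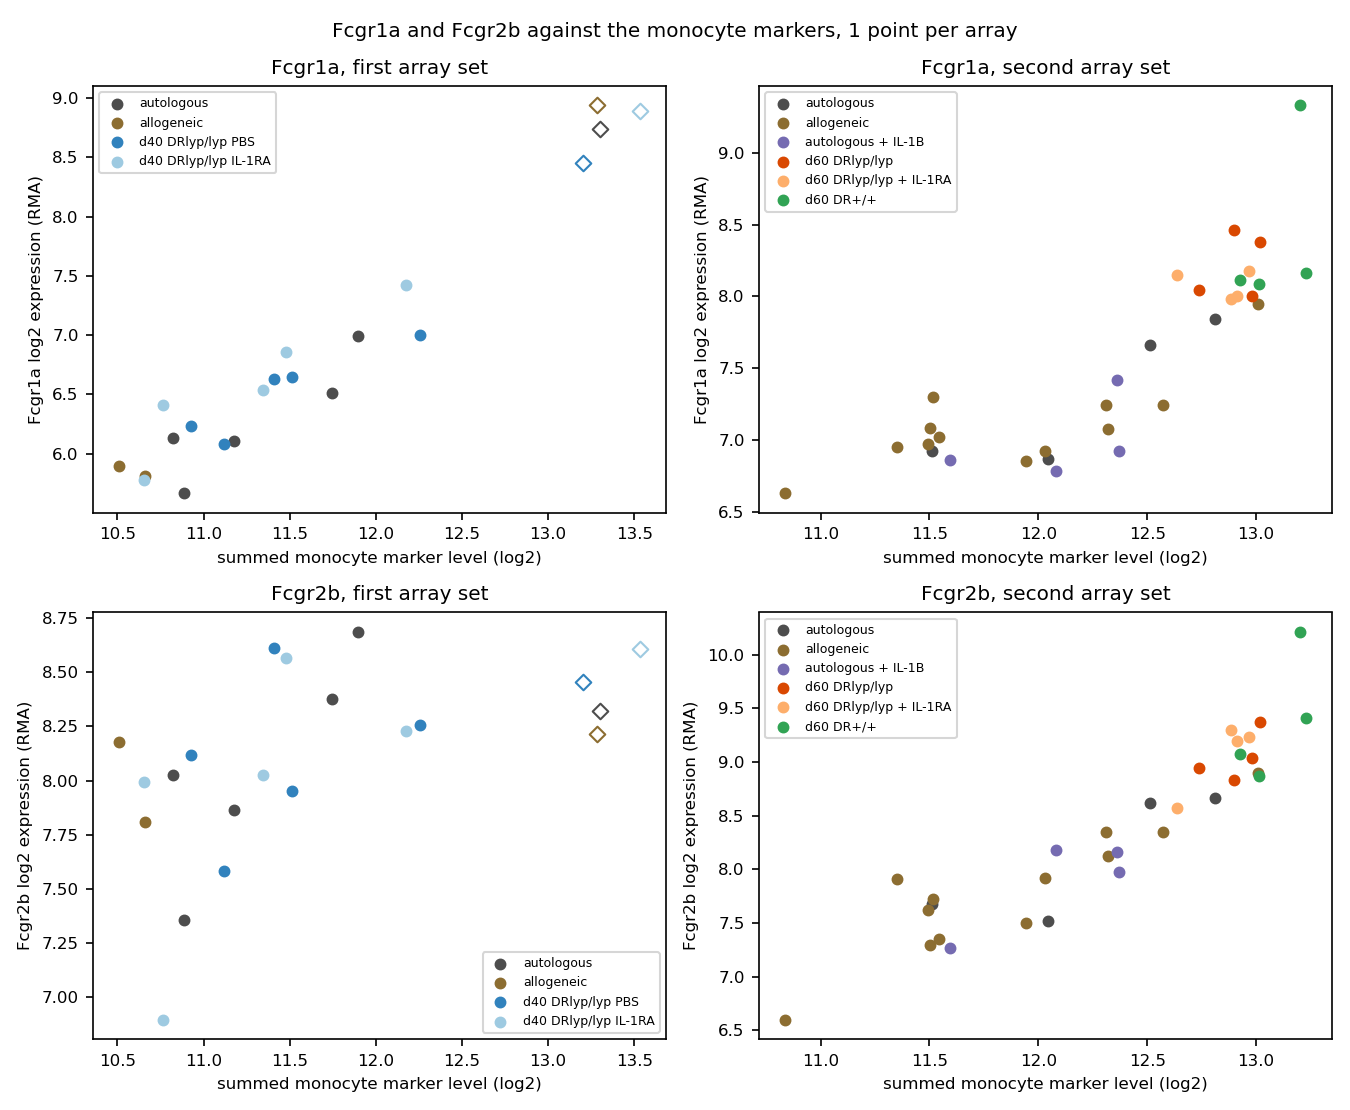
Log2 expression of Fcgr1a and Fcgr2b (y axis) against the summed level of 12 monocyte markers (x axis, log2), 1 point per array, by array set and group, with open diamonds for the first-set arrays numbered 1. The arrays numbered 1 lie at 13.20 to 13.53 on the x axis, above the other 17 arrays of their set (10.51 to 12.26).

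The first-set arrays numbered 1 also had the highest summed neutrophil markers, 10.26 to 10.58 against 7.33 to 8.97 on the other arrays of that set. DR+/+ replicate 4, the highest array of its group for Fcgr1a, Fcgr2b and Fcer2, was at 10.43 against 8.18 to 9.15 in the other 3 of its group. Of 7 measured neutrophil markers, 0 were called in the 4 comparisons of 60-day sera with BN sera. Neutrophils carry Fc receptors too, and their part was not tested.

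Immediate-early genes, which handling of cells can induce, moved in the DR+/+ comparisons in which receptors were called. Of 9 measured of a list of 10, 2 were called higher with DR+/+ against autologous serum, Fos by 1.97 (adjusted p = 0.0412, limma) and Egr1 by 1.41 (adjusted p = 0.0038, limma), both transcription factors. Against allogeneic serum 4 were called higher with DR+/+ serum: Fos, Jun, Egr1 and Ier2. Of all probe sets, 0.970% and 13.3% were called higher in these comparisons with DR+/+ serum. With DRlyp/lyp serum 0 immediate-early genes were called against either BN serum (medians 0.086 and 0.21). The summed level ran from 11.50 to 11.80 with DR+/+, 11.17 to 11.53 with DRlyp/lyp, 10.87 to 11.43 with autologous and 10.65 to 12.02 with allogeneic serum. Their part in the receptor differences was not tested.

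Some members also varied with each other within groups, more so in the second set, given again with no p. In the second set Fcgr1a and Fcgr2b correlated at r = 0.755 and rho = 0.672, and at r = 0.644 without 2 arrays. Fcgr2b and Fcer1g correlated at r = 0.702 and rho = 0.650. Fcgr2b and Fcer2 1391072_at correlated at r = 0.606 and rho = 0.558. In the first set Fcgr1a and Fcgr2b were at r = 0.517 and rho = 0.709. Fcgr2b there was at r = -0.129 (rho = 0.047) with Fcer1g and at r = 0.130 (rho = 0.138) with Fcer2 1391072_at. The 2 Fcer2 probe sets did not follow each other, at r = -0.242 over the 21 first-set arrays and r = 0.007 over the 32 others.

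B cells carry Fcgr2b and Fcer2, so their markers are given too. Of 8 measured of a list of 13, 0 were called with either 60-day serum against autologous serum (medians 0.15 and 0.25), and 3 and 2 were called higher against allogeneic serum (medians 0.35 and 0.46), among them Pou2af1, a B cell transcription coactivator, in both. Of all probe sets, 12.1% and 13.3% were called higher against allogeneic serum. The summed level of the B cell markers ran from 12.38 to 12.78 with autologous, 11.43 to 12.89 with allogeneic, 12.42 to 13.19 with DRlyp/lyp and 12.16 to 13.12 with DR+/+ serum, which overlap, and its part in the receptor values was not tested. Within groups Fcgr2b correlated with it at r = 0.637 in the first set (rho = 0.583) and r = 0.421 in the second. Fcer2 1391072_at, the B cell IgE receptor, was at r = 0.477 (rho = 0.421) in the first set and r = 0.221 (rho = 0.321) in the second.

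Of 16 other Fc receptors listed, 10 were measured by a probe set with 1 symbol. Against autologous serum 0 were called with either 60-day serum. The largest difference was that of Pigr, the transporter of IgA and IgM across epithelia, by 0.74 with DR+/+ serum (adjusted p = 0.126, limma). Against allogeneic serum, Fcmr, the IgM receptor, was called higher with DRlyp/lyp serum by 0.64 (adjusted p = 0.0255, limma) and with DR+/+ serum by 0.97 (adjusted p = 0.00128, limma). Fcrla, a B cell Fc receptor-like protein, was higher with DRlyp/lyp serum by 0.63, Pigr was higher with DR+/+ serum by 0.85, and Fcrl6 differed by -0.45 with DR+/+ serum. The list's medians lay between -0.06 and -0.01 in the 4 comparisons. The probe sets with both Fcgr2a and Fcgr2al1 as symbols are not in these medians. Of them, 1 was called higher with DRlyp/lyp against allogeneic serum, by 1.45 (adjusted p = 0.0133, limma). With DR+/+ serum that probe set was called higher by 1.09 (adjusted p = 0.0481, limma). The other differed by 0.79 and 0.91, not called. Against autologous serum neither was called, with differences between 0.22 and 0.62.

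Downstream of ITAM receptors, 22 of 24 listed genes were measured. With DR+/+ serum against autologous serum 2 were called, both higher: Fyn, a Src family kinase, by 0.95 (adjusted p = 0.0187, limma) and Sos1, a Ras exchange factor, by 0.84 (adjusted p = 0.0180, limma). With DRlyp/lyp serum 0 were called. Against allogeneic serum 8 rose and 0 fell with DRlyp/lyp serum, with a median of 0.34, and 9 rose and 1 fell with DR+/+ serum, with a median of 0.51. Called in both were Lcp2, the adaptor SLP-76 (1.06 and 1.15), Fgr, a Src family kinase of myeloid cells (1.06 and 0.89), Btk, a Tec family kinase (0.77 and 0.69), Vav1 (0.66 and 0.67) and Prkcd (0.44 and 0.43). Tyrobp, the adaptor DAP12, rose by 0.97 with DRlyp/lyp serum (adjusted p = 0.0188, limma). These shares stand beside the 12.1% and 13.3% of all probe sets called higher.

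Of the 10 genes listed downstream of ITIM receptors such as Fcgr2b, all were measured and 0 were called against autologous serum. Against allogeneic serum 3 rose with DRlyp/lyp serum (median 0.41) and 6 with DR+/+ serum (median 0.53), and 0 fell. Of all probe sets, 12.1% and 13.3% were called higher in these comparisons. The phosphatase Ptpn6, SHP-1, rose by 0.64 and 0.57, and the adaptors Dok2 (0.73 and 0.73) and Dok3 (0.69 and 0.55) rose with both. Inpp5d, the lipid phosphatase SHIP-1 that Fcgr2b recruits, rose by 0.62 with DR+/+ serum (adjusted p = 0.0414, limma), as did Inppl1, its relative, by 0.97 and Cbl by 0.51.

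Partner receptors of the gamma chain were mostly unmeasured: 3 of 12 had a probe set, and of these Clec4a3, a C-type lectin, was called higher by 1.31 (adjusted p = 0.0188, limma) with DR+/+ against allogeneic serum. Of 15 genes listed as partners of Fcer2 or targets of IL-4, 14 were measured and 0 were called against autologous serum. Against allogeneic serum Cd40, a B cell costimulatory receptor, rose by 1.18 with DRlyp/lyp and by 0.81 with DR+/+ serum, and Cr2, the complement receptor that binds CD23, rose by 0.83 with DRlyp/lyp serum. Socs1 differed by -0.42 with DRlyp/lyp serum and Il13 by -0.35 with DR+/+ serum, both called lower. Against allogeneic serum 21.5% (DRlyp/lyp) and 25.5% (DR+/+) of all probe sets were called, so these calls are not read as a result about the lists.

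Of 21 interferon gamma response genes 17 were measured. Ciita, the master regulator of MHC class II, was the 1 gene of the list called against autologous serum, by 1.02 with DR+/+ serum (adjusted p = 0.0202, limma). Against allogeneic serum the same 5 genes rose with DRlyp/lyp and DR+/+ serum, with list medians of 0.43 and 0.37. These were Stat2 (0.92 and 1.15) and Irf1 (1.49 and 1.17), transcription factors of the interferon response, Ciita (0.62 and 1.23), and the antiviral genes Mx1 (0.90 and 0.86) and Ifit2 (0.79 and 1.25). Of all probe sets, 12.1% and 13.3% were called higher against allogeneic serum. In the comparisons for IL-1RA in culture, IL-1B, 40-day PBS against autologous serum and 40-day IL-1RA against PBS, 0 genes of these 6 lists were called.

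The genes most like each member were found by Pearson correlation, as a description. Over the 53 arrays with group means subtracted, which include the arrays numbered 1, Slpi (0.938), Clec7a (0.932) and Cxcl2 (0.928) were most like Fcgr1a. Over the means of the 10 groups by set, with the mean of each array set subtracted, Fcgr2b itself was among the 3 genes most like Fcgr1a (0.975), beside Nek6 (0.981) and Ccl2 (0.974). Nek6 (0.992) was also the gene most like Fcgr2b over these means, followed by Bcat1 (0.986) and Abca1 (0.982). For Fcer1g they were Ctla2a (0.976), Mgst2 (0.961) and Myl11 (0.959), and for Fcer2 1391072_at Bank1 (0.965), Arhgap24 (0.963) and Kcnj5 (0.960). The 10 means share array sets and BN sera, so they are not independent.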

How the data were processed

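RNA of PBMCs from 53 cultures was measured on Affymetrix rat arrays of 31099 probe sets. The authors deposited a table of log2 expression values per probe set and array; per the submitters' processing notes the tools were RMA and Partek 6.2, and their order and settings are not given in the sources used here. The number of arrays limits the precision. After leaving out 57 control probe sets, 31042 were fitted. The array annotation gave 1 gene symbol for 20826 of them, several for 436 and none for 9780. Where a gene had several probe sets, its list value is that of the probe set with the highest mean, except that all member probe sets are given.

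Means of 10 groups by array set were fitted to all 53 arrays with limma 3.58.1 in R 4.3.3 (moderated variances with a trend, 2-sided tests, no replicate block), with Benjamini-Hochberg adjustment within each comparison. On simulated data of 31042 probe sets, 78% of log2 changes of 1 were recovered for DR+/+ against autologous serum and 92% for DRlyp/lyp against allogeneic serum, with 10 and 13 false calls. The simulation gave each array independent noise, whereas same-numbered arrays here deviated together. Its rates cover probe sets drawn at random and are not those of the members. Against autologous serum the SE was 0.51 for Fcgr1a and 0.34 for Fcgr2b. Their differences of 1.10 (DR+/+) and 0.93 (DRlyp/lyp) were not called. Correlations between arrays used deviations from group means and carry no p, since arrays of different groups were not independent. The plots used matplotlib 3.10.9 under Python 3.11.15.

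The members, gene lists, markers and tests were chosen with earlier results of these data known. Named were all member probe sets, called genes of the lists or the most different ones, and the 3 genes most like each member. Same-numbered arrays deviated together, by a correlation of at least 0.1 for every number, for DRlyp/lyp against DR+/+ serum (lowest 0.175), 40-day IL-1RA against PBS (0.401) and against autologous serum (0.129), and allogeneic against autologous serum in the first set (0.1). The labels do not say what a number shares.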

Additional observations from a re-analysis of the deposited data

Results flagged for a closer look

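In 4 of 40 tests of a member probe set within a group of 4 to 10 arrays, the highest or lowest array lay far from the others by Dixon's test at 95%. Chance flags about 1 in 20 such groups. Fcgr1a was at 9.33 on replicate 4 of DR+/+ serum, against 8.16 on the next array of its group. Fcgr2b was at 6.90 on replicate 5 of the 40-day serum of IL-1RA-injected rats, against 7.99 on the next array. Fcgr2b was at 8.57 on replicate 3 of DRlyp/lyp serum plus IL-1RA, against 9.20 on the next array. The dim Fcer2 probe set 1369872_a_at was at 4.08 on replicate 4 of autologous serum in the first array set, against 3.73 on the next array.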

How the results depend on the processing

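The Fcgr2b rise against allogeneic serum kept its call in every fit that left out 1 array. The member calls for DR+/+ against autologous serum (1) became 2 with array set as a block, 2 with the sets pooled, 0 with only the groups compared, 0 after a repeated quantile normalization, and 0 to 1 without 1 array. Those for DRlyp/lyp against allogeneic serum (2) became 1 with the block, pooled sets, quantile normalization or untrended variances, and 1 to 2 without 1 array. The Fcgr1a call for DR+/+ against allogeneic serum was lost with pooled sets and with the repeated quantile normalization. Over the settings that left out no array, 838 of 889 member values kept their direction and 871 their side of the threshold, and 0 of the 51 changes of sign concerned a called value. Pooling the sets turned Fcer1g to 0.35 (DR+/+) and 0.58 (DRlyp/lyp against autologous serum), and Fcgr1a to 0.12 (allogeneic), 0.055 (IL-1B) and -0.10 (40-day PBS, against autologous serum). Array weights turned Fcgr1a for DRlyp/lyp minus DR+/+ serum to 0.036 and Fcgr2b between the autologous sets to 0.041, which was 0.12 with each array centred on its median. Fcer2 by its other probe set was -0.082 and -0.061 for DR+/+ against allogeneic and autologous serum. Leaving out 1 array moved Fcgr1a from -0.24 to 0.46 (40-day IL-1RA against PBS), -0.17 to 0.56 (40-day PBS against autologous serum) and -0.31 to 0.10 (DRlyp/lyp minus DR+/+ serum). It moved Fcgr2b from -0.23 to 0.12, -0.092 to 0.17, -0.045 to 0.20 (IL-1RA in culture) and -0.21 to 0.17 (autologous sets), the first 2 for the same 40-day comparisons. The replicate block changed no member call: Fcgr2b for DRlyp/lyp minus DR+/+ serum stayed at -0.34 (adjusted p = 0.783, limma). All probe sets called for DR+/+ against autologous serum (418) became 987 with the block, 93 with pooled sets, 84 with the set fitted alone and 0 with only the groups compared, and against allogeneic serum (7924) 227 with pooled sets and 2797 with only the groups compared. The cause of these changes was not tested.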
